A study of Mus musculus with 4 samples.

Results

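The transcripts of the enzymes of glycolysis were followed in an RNA immunoprecipitation (RIP) with anti-YTHDF2 antibody from newborn mouse retina. The members were chosen by name, as every row of the deposited gene table whose symbol is *Hk1*, *Hk2*, *Gpi1*, *Pfkl*, *Aldoa*, *Tpi1*, *Gapdh*, *Pgk1*, *Eno1* or *Pkm*. These 10 symbols matched 11 of the 52550 rows, since *Aldoa* stands for 2 neighbouring gene identifiers. Of the 11 rows, 10 passed the filter on low counts and were tested among 13632 genes. The second *Aldoa* row (ENSMUSG00000114515) did not pass, with 3 and 12 input counts and 0 and 6 RIP counts. All samples were retinas of wild-type C57BL/6 mice at postnatal day 0, dissociated with papain, and no further treatment is named. RNA taken before the pulldown (input, n = 2) was compared with RNA recovered with the antibody (RIP, n = 2). A control pulldown with IgG, which the methods mention, was not analysed here, so RNA held without YTHDF2 cannot be told apart from RNA held by it.

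Glycolysis turns glucose into pyruvate in the cytosol. Hexokinase, phosphofructokinase and pyruvate kinase catalyse its practically irreversible, regulated steps, while the enzymes between them work near equilibrium and are made in large amounts in most cells. Retina is known for a high rate of glycolysis even in the presence of oxygen. YTHDF2 is a cytoplasmic protein that binds mRNA carrying *N*6-methyladenosine (m6A) and brings it to the decay machinery. The mark is commonly found in a GGAC context and is known to be frequent around stop codons.

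The letters GGACT, a common form of that context, were searched on the sense strand of the longest protein-coding transcript of each gene in GENCODE M21 (GRCm38). They are shown because the members differed in how many matches they held, and a match is a description of the sequence and no evidence of a methylated site. In the coding and 3' untranslated parts, *Hk2* had 10 matches, *Hk1* 9, *Pkm* 6, *Gpi1* and *Pgk1* 4 each, *Pfkl* and *Tpi1* 3 each and *Eno1* 1. Over all coding transcripts with an annotated stop codon the counts ran from 6 to 10 in *Hk2*, 6 to 9 in *Hk1*, 1 to 4 in *Gpi1* and 2 to 3 in *Tpi1*. *Gapdh* and *Aldoa* (ENSMUSG00000030695) had 0 in these parts, in each of their 3 such transcripts. The 2 matches of *Gapdh* lay in the 5' untranslated part of its longest transcript. Among the tested protein-coding genes whose coding and 3' untranslated parts were within 10% of the 1180 nt of *Gapdh*, 107 of 503 (21.3%) also had none. Around the 1440 nt of *Aldoa* it was 112 of 672 (16.7%). Longer transcripts have more room for matches. Per kb of the whole transcript *Pkm* had 2.88, *Hk1* 2.57, *Hk2* 1.81 and *Pfkl* 0.804. In the 200 bases centred on the end of the stop codon, 4 of the 10 tested members held the letters, against 25.1% of 11465 tested protein-coding genes with a full window. The match nearest to the stop codon is printed below for these 4 and for *Hk1*, 5' to 3', with the 5 letters in capitals and the bases on either side in lower case.
*Hk2* (3' untranslated part, minus strand, chr6:82727277-82727305): ttggagcagacgGGACTtccctgcttcct
*Pfkl* (3' untranslated part, minus strand, chr10:77988163-77988191): tcctgcgttcccGGACTctcaccctccca
*Tpi1* (3' untranslated part, minus strand, chr6:124811218-124811246): cctgcatagcatGGACTaggttgcccaga
*Gpi1* (coding part, minus strand, chr7:34202445-34202473): tcctccactaacGGACTgatcagcttcat
*Hk1* (3' untranslated part, minus strand, chr10:62269745-62269773): gagggaggaaggGGACTgcagtaacggag
The match began 16 bases past the stop codon in *Hk2*, 30 in *Pfkl*, 34 in *Tpi1* and 147 in *Hk1*. In *Gpi1* it began 48 bases before the end of the stop codon, in the coding part.

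**Figure D1:**
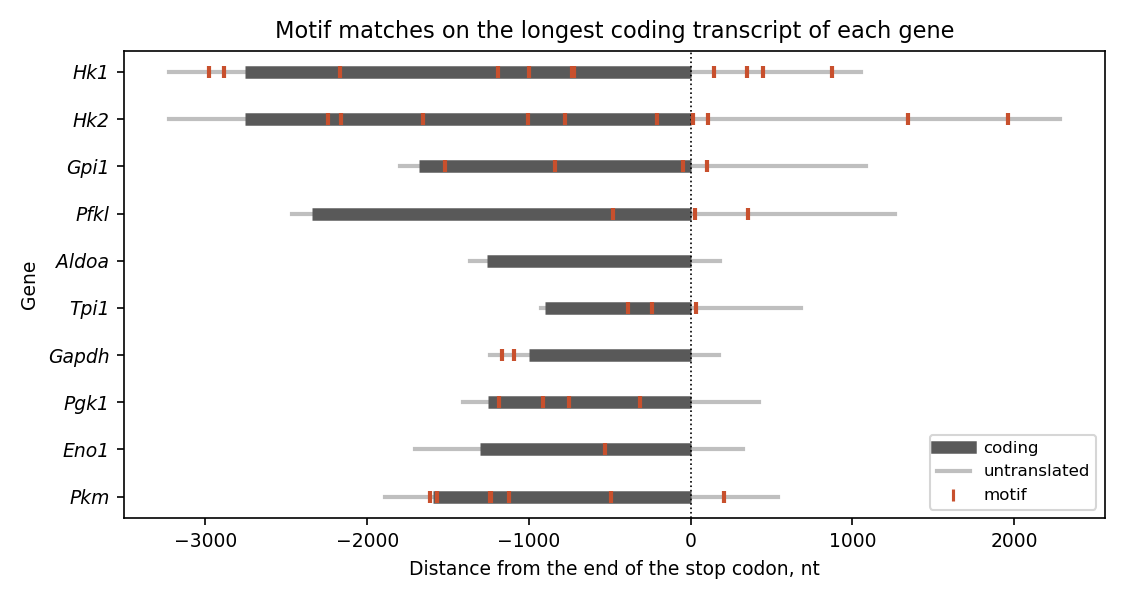
Matches of the searched letters (red ticks) along the longest coding transcript of the 10 tested genes, with the coding part as a thick and the untranslated parts as a thin line. The x axis gives the distance in nt from the end of the stop codon. *Hk1* and *Hk2* carry 9 and 10 matches in the coding and 3' untranslated parts, *Gapdh* and *Aldoa* none.

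Total counts were 39499994 and 36236531 for input and 19530226 and 24903212 for RIP, of which nuclear protein-coding genes held between 2064465 and 3560122. The rows *AY036118* and *CT010467.1* alone took 55.5% and 55.0% of the input and 85.3% and 87.8% of the RIP counts. Each CPM below is a count scaled by library size and TMM factor, and a gene that kept pace with most of the 13632 tested ones has a log2 fold change near 0, their median being -0.05. Of these genes 474 were enriched and 1333 depleted at an adjusted p below 0.05. With library size alone as the scale their median was 0.27, with 845 enriched and 998 depleted, and the median of the 10 tested members went from 0.02 to 0.36 alongside. The markers of the retina were present: all 8 progenitor, 9 ganglion cell and 8 amacrine and horizontal cell markers were tested, while 4 of 7 lens markers (*Cryaa*, *Crygs*, *Mip* and *Cryba4*) and 4 of 6 pigment epithelium markers (*Pmel*, *Rpe65*, *Tyr* and *Tyrp1*) had no count in any library. At the adjusted threshold 3 of 8 progenitor, 2 of 9 ganglion cell and 1 of 8 amacrine and horizontal cell markers were depleted and 0 enriched. Of the 4 tested endothelial and pericyte markers 1 was enriched and 1 depleted. Over all tested genes the shares were 3.48% enriched and 9.78% depleted. The summed level of the 9 ganglion cell markers was 30.4 and 25.9 FPKM before and 10.1 and 7.73 FPKM after the pulldown. That of the 8 progenitor markers was 184 and 144 FPKM against 174 and 125 FPKM. The 6 endothelial and pericyte markers had 4.70 and 4.41 FPKM against 10.8 and 8.27 FPKM. The 6 photoreceptor markers summed to 23.4 and 21.7 FPKM against 37.3 and 30.9 FPKM, and the 6 erythrocyte markers to 0.953 and 0.876 FPKM against 0.056 and 0.424 FPKM. The part of these shifts in the results below was not tested.

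The members differed widely in level before any pulldown. By FPKM, the deposited level per length of gene, *Gapdh* was highest in the inputs with 91.5 and 39.9 FPKM. *Pkm* followed with 15.5 and 13.7 FPKM, *Eno1* with 9.18 and 6.84 FPKM and *Pgk1* with 8.18 and 5.99 FPKM. The ranges of *Gapdh*, *Pkm* and *Eno1* in the 2 inputs did not overlap with each other. Those of *Pgk1*, *Aldoa* (6.62 and 2.98 FPKM), *Tpi1* (5.21 and 4.13 FPKM) and *Gpi1* (4.70 and 3.35 FPKM) each overlapped with the neighbour above, so their order was within the spread. The kinases that feed the pathway were far lower, *Hk1* at 0.871 and 0.543 FPKM, *Pfkl* at 0.554 and 0.412 FPKM and *Hk2* at 0.137 and 0.165 FPKM. The order was another in the RIP libraries, where *Pkm* was first with 20.1 and 16.2 FPKM and *Pgk1* second with 12.6 and 9.82 FPKM. *Gapdh* came next with 8.71 and 7.27 FPKM, and its range overlapped with that of *Eno1* (7.57 and 5.55 FPKM). FPKM followed the merged exons of all annotated transcripts, which for *Gapdh* span 4133 nt against 1420 nt in its longest coding transcript. Per kb of that transcript the mean level of *Gapdh* was 229 CPM in the inputs and 22.6 CPM in the RIP, below the 36.1 CPM of *Pkm* but above the 13.3 CPM of *Pgk1*, so that the places of *Gapdh* and *Pgk1* in the RIP depend on the length used. The second *Aldoa* row reached at most 0.369 FPKM in any library and is listed at 0 in RIP replicate 1.

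All 11 rows together took 0.702% and 0.391% of the nuclear protein-coding counts before the pulldown and 0.278% and 0.295% after it. Most of that difference lay in *Gapdh*. Without it the share was 0.262% and 0.199% in input and 0.243% and 0.255% in RIP, so that the groups overlapped. *Gapdh* made up 62.6% and 49.1% of the members' input counts and 12.6% and 13.4% of their RIP counts.

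**Figure D2:**
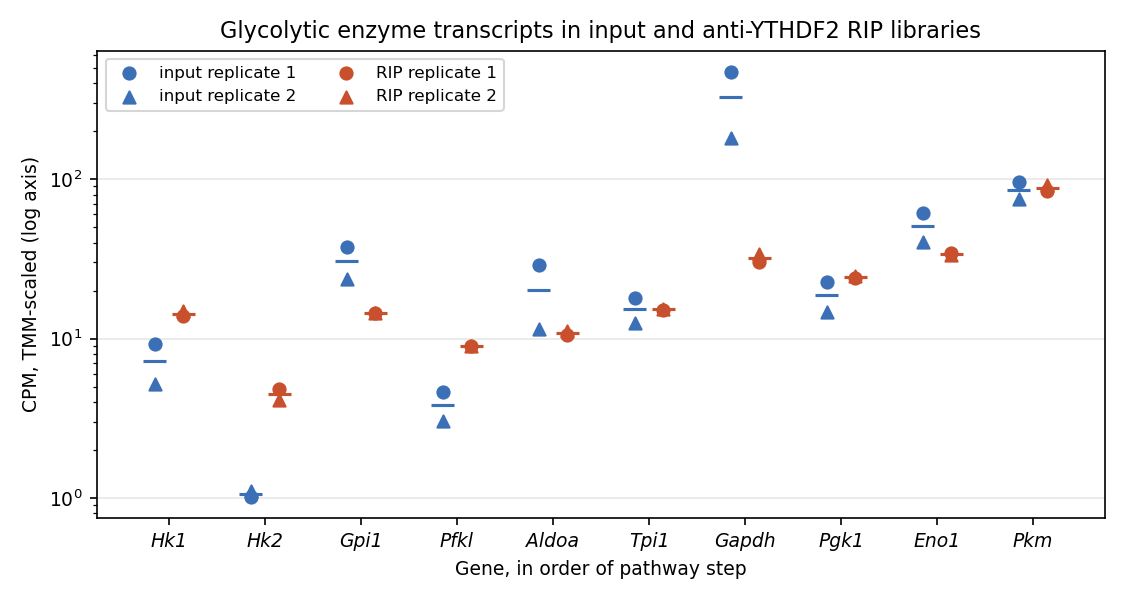
CPM of the 10 tested genes (log y axis) in the 2 inputs (blue) and 2 RIP libraries (red), circles for replicate 1, triangles for replicate 2 and bars for the group means. The RIP replicates lie closer together than the inputs for all but *Hk2*, and the groups are apart for all but *Tpi1* and *Pkm*.

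On the log2 scale the inputs were further apart than the RIP libraries for each tested member but *Hk2*, whose RIP values differed more. Input replicate 1 was the higher input for 9 of the 10 tested members, *Hk2* being the exception, against 57.2% of all tested genes. The median size of the log2 difference between replicates was 0.61 for the inputs and 0.07 for the RIP libraries over the members, and 0.61 and 0.29 over all tested genes. Apart from *Hk2*, most of the spread in the ratios below thus came from the inputs.

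Hexokinases phosphorylate glucose as it enters the pathway, and *Hk2* rose in the RIP. *Hk2*, the inducible form found in muscle, fat and growing cells (chromosome 6, 82725025 to 82774454, minus strand), had 34 and 38 input counts and 121 and 99 RIP counts. The corresponding levels were 1.02 and 1.11 CPM against 4.80 and 4.12 CPM, and the groups did not overlap. *Hk2* rose 4.18-fold, or 2.06 on the log2 scale (standard error 0.411; edgeR quasi-likelihood test, Benjamini-Hochberg adjusted p = 0.0150), above that of 98.8% of all tested genes. It was the only member to pass the adjusted threshold in the direction of enrichment, against 3.48% of all tested genes. Without RIP replicate 1 it was at 2.04 (adjusted p = 0.185) and without RIP replicate 2 at 2.25 (adjusted p = 0.117), and in these fits only 8 and 9 of all genes were enriched. *Hk1*, the form of brain and most tissues (chromosome 10, 62268855 to 62379908, minus strand), had 310 and 177 input counts and 349 and 357 RIP counts. With 9.30 and 5.16 CPM against 13.8 and 14.8 CPM, both RIP libraries lay above both inputs. The log2 fold change of *Hk1*, 0.99 (standard error 0.388), did not pass (unadjusted p = 0.0325, adjusted p = 0.130, edgeR), and with the replicate number as a block it was 1.05 (adjusted p = 0.125). It was 1.47 with input replicate 1 left out and 0.62 with input replicate 2 left out. *Hk2* lay above *Hk1* by 1.66 in the log2 ratio of RIP to input of replicate 1 and by 0.37 in that of replicate 2, a difference of 1.01 ± 0.913 (SD, n = 2) whose spread is nearly as large as its mean. An exact permutation test of any single value cannot give a two-sided p under 0.333 with 2 libraries against 2, and the calls given here use a variance estimate pooled over genes.

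*Pfkl* encodes the liver form of phosphofructokinase, which commits sugar phosphate to glycolysis (chromosome 10, 77986947 to 78010083, minus strand). It had 154 and 105 input counts and 225 and 217 RIP counts, or 4.62 and 3.06 CPM against 8.92 and 9.02 CPM. Both RIP libraries were about equal and above both inputs. Its log2 fold change of 1.22 (standard error 0.381, unadjusted p = 0.0113, adjusted p = 0.0688, edgeR) missed the adjusted threshold. Leaving out input replicate 1 put *Pfkl* at 1.55, and leaving out input replicate 2 put it at 0.95. It passed narrowly with library size alone (adjusted p = 0.0410) and with DESeq2 (adjusted p = 0.0484). It met a looser limit used beside it, a log2 fold change of at least 1 in size with an unadjusted p below 0.05, which *Hk2* also met. These 2 of 10 members stand against 9.43% of all tested genes. *Hk1* met that limit too with the replicate block.

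*Gapdh*, whose enzyme oxidises glyceraldehyde 3-phosphate and which is widely used as a reference gene, fell in the RIP (chromosome 6, 125161715 to 125166467, minus strand). It had 15648 and 6208 input counts and 765 and 815 RIP counts. Scaled, these were 469 and 181 CPM against 30.3 and 33.9 CPM, so that the inputs differed from each other but both were far above the RIP. The log2 fold change was -3.34 (standard error 0.512, adjusted p = 0.00499, edgeR), or 10.1-fold lower, and only 2.79% of tested genes had a lower one. *Gapdh* was the 1 member depleted at an adjusted p below 0.05, against 9.78% of all tested genes. Without input replicate 1 the log2 fold change was -2.49 and without input replicate 2 it was -3.88. Without RIP replicate 1 it was -3.13 (adjusted p = 0.0762) and without RIP replicate 2 it was -3.30 (adjusted p = 0.0576), neither past the threshold. Among nuclear protein-coding genes ranked by FPKM, *Gapdh* stood at place 60 and 113 of 21806 in the inputs and at place 407 and 352 in the RIP libraries. These places depend on the length used, for *Gapdh* 4133 nt of merged exons against 1420 nt in its longest coding transcript.

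*Gapdh* is also the member with the most copies in the genome. A search for annotated transcripts with at least 90% identity over at least 300 nt found 172 other genes, 167 of them pseudogenes, and 63 of the 172 had counts. How the authors' counting treated reads that match several places is not given in the sources used here, so the split between *Gapdh* and its copies is uncertain. The copies together had 4347 and 2239 input counts and 239 and 207 RIP counts. Their summed log2 ratio of RIP to input was -3.78 in replicate 1 and -2.92 in replicate 2, and that of *Gapdh* and the copies together was -3.91 and -2.53, against -3.95 and -2.42 for *Gapdh* alone. The direction and size were thus much the same with the copies added. Similar copies held 23.0% as many counts as *Eno1*, among them *Eno1b*, and 10.4% as many as *Pgk1*, but at most 1.94% for each other member.

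The enzyme of *Gpi1* acts after the hexokinase step, and that of *Aldoa* splits the sugar. *Gpi1*, glucose phosphate isomerase (chromosome 7, 34201330 to 34230336, minus strand), had 1256 and 815 input counts and 364 and 349 RIP counts. Its 37.7 and 23.8 CPM in the inputs stood against 14.4 and 14.5 CPM in the RIP, with no overlap. The log2 fold change of -1.09 (standard error 0.364, unadjusted p = 0.0162, adjusted p = 0.0851, edgeR) met the looser limit but not the adjusted threshold, so that 2 of 10 members, *Gpi1* and *Gapdh*, met the looser limit for depletion against 17.2% of all tested genes. *Gpi1* passed with DESeq2 (adjusted p = 0.0387). It was at -0.72 without input replicate 1 and at -1.39 without input replicate 2. An antisense gene, *Gm26762*, covers 11.5% of the exon bases of *Gpi1*.

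*Aldoa*, aldolase A (ENSMUSG00000030695, chromosome 7, 126795234 to 126800751, minus strand), had 965 and 395 input counts and 265 and 270 RIP counts. The levels were 28.9 and 11.5 CPM against 10.5 and 11.2 CPM, and the second input lay just above the RIP libraries. The log2 fold change was -0.90 (standard error 0.456, adjusted p = 0.228, edgeR). The value rested on input replicate 1, being -0.08 without it and -1.42 without input replicate 2.

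*Tpi1*, *Pgk1*, *Eno1* and *Pkm* carry the lower part of the pathway, and none of them passed. *Tpi1*, triosephosphate isomerase (chromosome 6, 124810586 to 124814296, minus strand), had 17.9 and 12.6 CPM in the inputs and 15.1 and 15.4 CPM in the RIP libraries, which lay between the inputs. Its log2 fold change was 0.00085 with a 95% interval from -0.78 to 0.79. *Pgk1*, phosphoglycerate kinase (chromosome X, 106187100 to 106203699, plus strand), had 22.8 and 14.7 CPM in the inputs and 23.8 and 24.7 CPM in the RIP libraries. Both RIP values were above both inputs, but input replicate 1 was close to them, and the log2 fold change was 0.37 (interval -0.44 to 1.18, adjusted p = 0.526, edgeR). Without input replicate 1 *Pgk1* was at 0.72, and without input replicate 2 at 0.09.

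*Eno1*, enolase (chromosome 4, 150236721 to 150248879, plus strand), had 61.3 and 40.5 CPM in the inputs and 34.3 and 33.6 CPM in the RIP libraries, with no overlap, and a log2 fold change of -0.58 (interval -1.39 to 0.22, adjusted p = 0.307, edgeR). Without input replicate 2 *Eno1* was at -0.86, and without input replicate 1 at -0.25. *Pkm*, pyruvate kinase (chromosome 9, 59656368 to 59679375, plus strand), had 96.2 and 75.1 CPM in the inputs and 84.4 and 91.2 CPM in the RIP libraries, again between the inputs. Its log2 fold change was 0.04 (interval -0.73 to 0.81, adjusted p = 0.955, edgeR). Counts are per gene and do not separate the alternatively spliced forms of *Pkm*, which has 11 annotated transcripts. A gene on the same strand, *Gm49759*, covers 15.3% of the exon bases of *Pkm*, and how reads there were counted is not given.

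**Figure D3:**
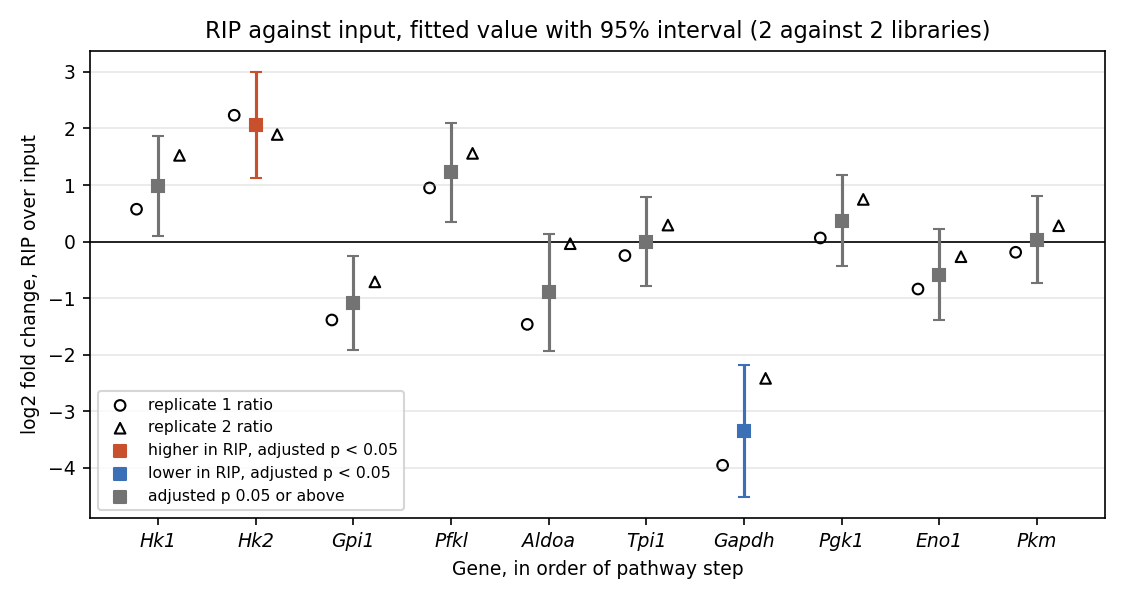
Fitted log2 fold change of RIP over input for the 10 tested genes in pathway order, with 95% intervals (squares), and the log2 ratio of each replicate (circles and triangles). *Hk2* (2.06, red) and *Gapdh* (-3.34, blue) had an adjusted p below 0.05, the others (grey) did not.

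Over the list, 4 members (*Hk1*, *Hk2*, *Pfkl* and *Pgk1*) had both RIP libraries above both inputs and 4 (*Gpi1*, *Aldoa*, *Gapdh* and *Eno1*) had both below, against 29.6% and 31.3% of all tested genes. The median log2 fold change of the 10 members was 0.02, close to the -0.05 of all tested genes. Their fold changes ran from -3.34 to 2.06, so that the list had no common direction. The log2 ratio of *Hk1* exceeded that of *Gapdh* by 4.53 in replicate 1 and 3.94 in replicate 2.

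The members also differed in length and in what goes with it. The longest coding transcripts of *Hk2* (5513 nt), *Hk1* (4278 nt) and *Pfkl* (3730 nt), the members with the highest fold changes, were the longest of the tested members, and *Gapdh* (1420 nt) was the shortest of them. Across the 10 members the fold change had a Spearman rho of 0.75 with transcript length, 0.70 with the length of the 3' untranslated part, -0.21 with GC content and 0.38 with matches of GGACT per kb. Without *Gapdh* the rho with length was 0.65 (n = 9). Genes share their libraries and are no independent replicates, and over 11953 tested protein-coding genes the rho with length was 0.49. The fold change had a rho of -0.66 with the mean input FPKM of the 10 members, and this measure shares the input libraries with the fold change.

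With smooth trends of each library on GC content and length taken out, *Gapdh* was at -2.56 (adjusted p = 0.00397, edgeR) and *Hk2* at 1.52 (adjusted p = 0.0233), both still past the threshold. In the same fit *Pfkl* was at 0.86 (adjusted p = 0.0483), *Gpi1* at -1.08 (adjusted p = 0.0202) and *Pgk1* at 0.96 (adjusted p = 0.0341), and all 3 then passed. With the replicate block added to the trends only *Gpi1* of these 3 did (adjusted p = 0.0418), while *Pfkl* had an adjusted p of 0.0853 and *Pgk1* of 0.0614.

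**Figure D4:**
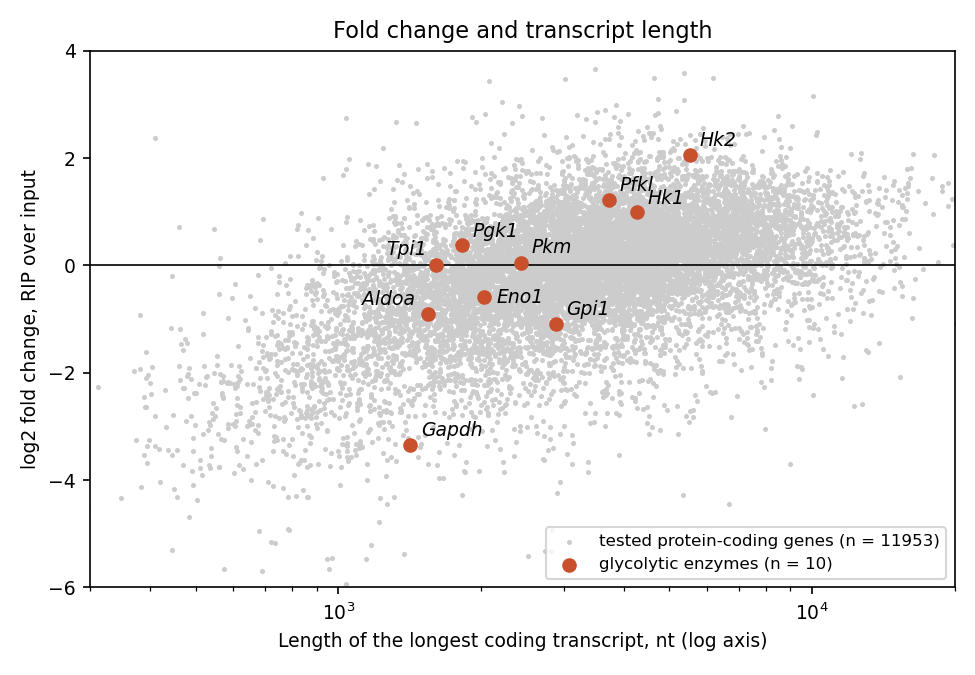
Log2 fold change of RIP over input (y axis) against the length of the longest coding transcript in nt (log x axis) for 11953 tested protein-coding genes (grey) and the 10 glycolytic enzymes (red, named); 53 genes lie outside the axes. The longer *Hk2*, *Hk1* and *Pfkl* lie above 0 and the short *Gapdh* far below.

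Of 22 other genes of glycolysis and lactate formation, 13 passed the filter, and 0 of them had an adjusted p below 0.05 in either direction by edgeR, while DESeq2 called 1 higher and 0 lower. Over all tested genes, 3.48% were enriched and 9.78% depleted by edgeR at the adjusted threshold, and 9.43% and 17.2% at the looser limit. DESeq2 enriched 692 and depleted 1456 of the 23345 genes it fitted. At an unadjusted p below 0.05 in edgeR, 1 of the 13 was higher and 2 were lower, each with a log2 fold change past 1 in size. The higher one was *Pgam1*, phosphoglycerate mutase, which fills the step between *Pgk1* and *Eno1*. It had 666 and 251 input counts and 805 and 960 RIP counts, all RIP levels above all inputs, and was at 1.40 on the log2 scale (standard error 0.484, adjusted p = 0.0938, edgeR). With the replicate block it passed, at 1.56 (adjusted p = 0.0235), and with DESeq2 at 1.41 (adjusted p = 0.0211). Without input replicate 1 it was at 2.29, and without input replicate 2 at 0.84. Its pseudogene *Pgam1-ps2* had a log2 fold change of 1.40 as well, and the split of reads between them is uncertain. The ratio of *Pgam1* exceeded that of *Gapdh* by 4.63 in replicate 1 and 4.86 in replicate 2, and its longest coding transcript has 1775 nt.

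The lower values were those of the paralogs *Aldoc*, brain aldolase, at -1.85 (37 and 33 input counts against 6 and 8, adjusted p = 0.115, edgeR) and *Eno3*, muscle enolase, at -1.82 (29 and 30 counts against 6 and 6, adjusted p = 0.135). Neuronal enolase *Eno2* was at -0.67, and *Eno1* exceeded it by 0.12 and 0.14 in the log2 ratios of the 2 replicates. The retrotransposed *Eno1b* was at -0.75 and passed in no alternative that kept all libraries. Without input replicate 2 it was at -1.05. Of the phosphofructokinases, muscle *Pfkm* was at 0.62 and platelet *Pfkp* at -0.42. Once scaled, the 183 and 437 input counts of *Pfkp* lay on both sides of its 221 RIP counts in replicate 1. Its value turned to 0.31 without input replicate 2 but was -0.90 without input replicate 1. *Pfkl* exceeded *Pfkm* by 0.59 and 0.65 in the replicates. Lactate dehydrogenase *Ldha* was at 0.52 and *Ldhb* at -0.40, and neither passed (adjusted p = 0.457 and 0.486, edgeR). Without input replicate 1 *Ldha* was at 1.19 and *Ldhb* at -0.07. Without input replicate 2 they were at 0.05 and -0.68. The testis forms *Pgk2* and *Ldhc* had no count in any library. *Ldhd*, which was not tested, had 43 counts in RIP replicate 1 and 0 in the other 3 libraries.

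Among the regulators of the pathway, the 2 enriched genes lay above every member in fold change. Among 19 tested of 22 regulators and transporters, 2 were enriched and 1 was depleted at an adjusted p below 0.05, against 3.48% and 9.78% of all tested genes. *Pfkfb3* and *Pfkfb2* encode enzymes that make and remove fructose 2,6-bisphosphate, an activator of phosphofructokinase. *Pfkfb3* had 33 and 32 input counts and 129 and 146 RIP counts and rose by 2.53 on the log2 scale (adjusted p = 0.00627, edgeR). *Pfkfb2*, with 25 and 62 counts against 152 and 165, rose by 2.33 (adjusted p = 0.0189). *Pfkfb4*, of the same family, was at -0.20 and did not pass (adjusted p = 0.831). *Bsg*, basigin, the partner of lactate transporters at the membrane, had 1735 and 778 input counts and 250 and 250 RIP counts and fell by 1.88 on the log2 scale (adjusted p = 0.0286). It is short, with a longest coding transcript of 1526 nt, while *Pfkfb3* has 4801 nt and *Pfkfb2* 4425 nt. With no filter on low counts the call of *Bsg* was lost (adjusted p = 0.0563). Each of these 3 calls was lost without either RIP replicate, with log2 fold changes of between 2.29 and 2.75 for *Pfkfb3* and *Pfkfb2* and of -1.72 and -1.80 for *Bsg* (adjusted p between 0.0756 and 0.293).

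The neighbouring pathways are read against the 3.48% of all tested genes that were enriched and the 9.78% that were depleted. At the looser limit these shares were 9.43% and 17.2%. DESeq2 enriched 692 and depleted 1456 of 23345 genes at the adjusted threshold. All 7 genes of the pentose phosphate pathway were tested, and 0 passed in edgeR, while 1 was depleted by DESeq2. At the looser limit 1 was depleted by edgeR (*Tkt*, transketolase, at -1.01), and the median log2 fold change was -0.59. Of the 21 genes of the tricarboxylic acid cycle 2 were depleted and 0 enriched by edgeR and by DESeq2. At the looser limit 0 were enriched and 4 depleted by edgeR, and the list had a median of -0.48. The 2 past the adjusted threshold in edgeR were *Sdhd* at -1.73 (adjusted p = 0.0423) and *Idh3a* at -1.65 (adjusted p = 0.0401). They encode subunits of succinate dehydrogenase and isocitrate dehydrogenase. These calls were lost under several alternatives, *Sdhd* being at -0.65 (adjusted p = 0.238) with GC and length trends taken out and *Idh3a* at an adjusted p of 0.0599 with DESeq2. Without RIP replicate 1 or 2 neither passed, *Sdhd* being at -1.34 and -1.96 and *Idh3a* at -1.64 and -1.49. Of 7 gluconeogenesis genes 3 were tested and 0 passed by edgeR or DESeq2, while 1 was enriched at the looser limit by edgeR. *G6pc*, *Pck1* and *Fbp2* had no count in any library.

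**Figure D5:**
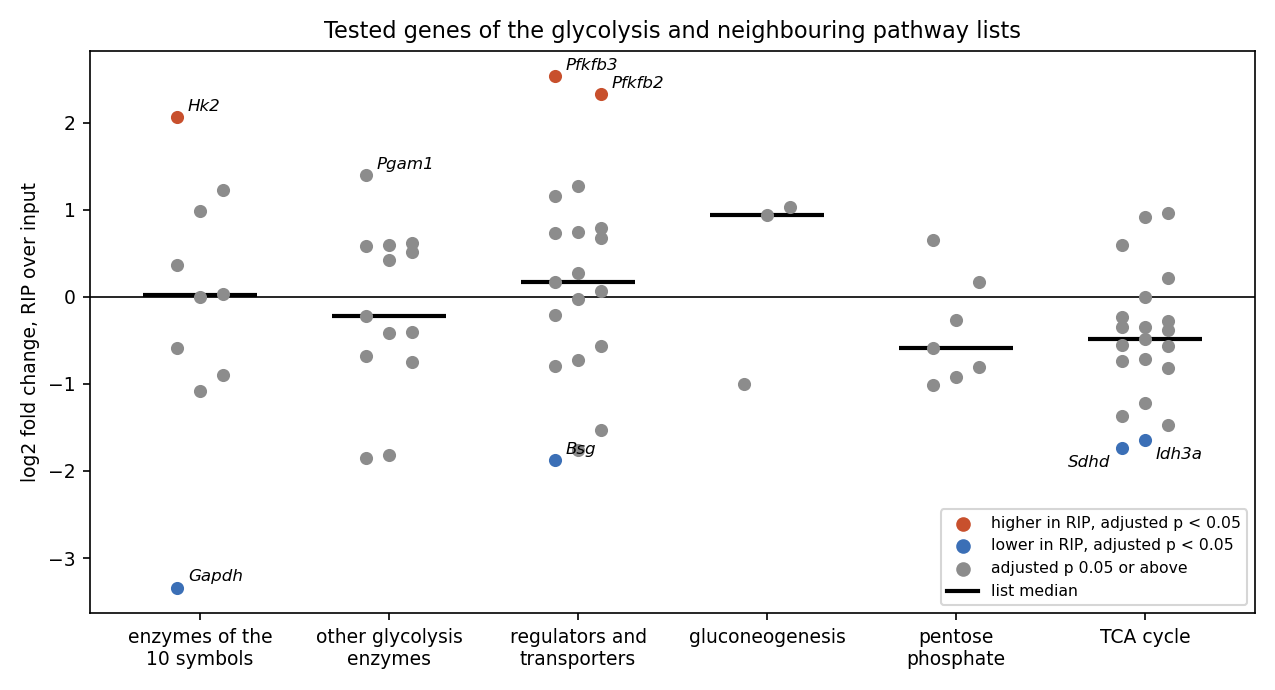
Log2 fold change of RIP over input for each tested gene of 6 lists, with the list median as a black bar. Genes with an adjusted p below 0.05 are named and red (*Hk2*, *Pfkfb3* and *Pfkfb2*) or blue (*Gapdh*, *Bsg*, *Sdhd* and *Idh3a*), and *Pgam1* is named as the highest of the other glycolysis enzymes.

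The median profile of the members over the 4 libraries was nearly flat between input and RIP. Among 4964 genes with a mean of at least 5 CPM outside the fixed lists, those near to it in centred log2 CPM included *E2f2*, *Sae1*, *Insm1* and *Fam114a2*, at Euclidean distances of 0.025 to 0.055. Their log2 fold changes lay between 0.0057 and 0.04, far from those of *Hk2* and *Gapdh*, which this profile does not describe.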

How the data were processed

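The authors deposited a table of counts, whole reads per gene and not normalized, and a table of FPKM values for the same genes, scaled by the authors for length and library size. The submitters' processing notes name GRCm38, STAR 2.5 and HTSeq; their settings are not given in the sources used here. For 8 or 9 of the 10 tested members, depending on the library, FPKM followed the merged exon length of all annotated transcripts within 2%. Groups and replicate numbers came from the sample titles.

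All genes were fitted in R 4.3.3 with edgeR 4.0.16 (filterByExpr with minimum count 10 and total 15, TMM, glmQLFit, glmQLFTest), and p-values were adjusted over all 13632 genes by Benjamini-Hochberg. Nothing in the labels says that replicates came from separate animals, and p-values measure the spread between these libraries. The study's design gives each replicate an input and a pulldown; the difference between the inputs and that between the RIP libraries had a Spearman correlation of -0.03 across genes, and the block on the replicate number was run as an alternative. The others were DESeq2 1.42.0, library size alone, upper quartile, TMM without ribosomal, small and mitochondrial RNA, leaving out no gene for low counts, requiring 10 counts in all libraries, limma 3.58.1 on log2(FPKM + 0.1) and log2(FPKM + 1) where the mean FPKM reached 0.1, GC and length trends (mgcv 1.9.3), and each library left out. Of the 52550 identifiers, 52403 were found in GENCODE M21, the source of coordinates and sequences; near-identical copies were searched with BLAST 2.17.0. The fits, apart from those with a library left out, were run on simulated counts. These had the same spread in all libraries, so a spread that differs between inputs and RIP was not covered. The looser limit was taken from the limits that the study's list of targets shows. Apart from that, the paper's values and lists were not used.

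The members and gene lists were chosen with earlier results of these data known. Named beside the members are genes of the other lists that passed with a mean of at least 5 CPM, the paralogs of the members that were tested, and genes of like profile. Some items that this rule names are not reported here. *Pfkfb2*, *Pfkfb3*, *Pfkfb4*, *Sdhd*, *Idh3a*, *Tkt*, *Ldhd*, *Pgam1-ps2* and the genes named as having no count lie outside that rule and were named after their values were seen.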

Additional observations from a re-analysis of the deposited data

How the results depend on the processing

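Of 150 refits of the 10 tested members, 124 kept the direction and the side of the adjusted threshold, 17 gained it, 4 lost it and 5 changed sign. The losses were *Hk2* and *Gapdh* without a RIP replicate. The gains of *Hk1*, *Aldoa* and *Eno1* came only with an input replicate left out. Enriched members numbered 1, and 2 with DESeq2, library size alone or TMM without ribosomal, small and mitochondrial RNA. They numbered 3 with GC and length trends taken out. Over all tested genes 474 were enriched, with 692 of 23345 in DESeq2, 845 by library size alone, 524 by that TMM and 871 without these trends. Depleted members numbered 1, and 2 with DESeq2 and with GC and length trends taken out, with or without the replicate block. Over all tested genes 1333 were depleted, with 1456 of 23345 in DESeq2, 1038 without these trends and 803 with the block added. With libraries left out the member counts moved both ways, as did those over all tested genes given below. By the looser limit 2 members were enriched and 2 depleted. The enriched count was 0 with log2(FPKM + 1), 1 with GC and length trends taken out, with or without the block, 3 with library size alone, the cleaned TMM, no filter on low counts, log2(FPKM + 0.1) or the replicate block, and 1 to 3 with libraries left out. The depleted count was 1 with library size alone, no filter, log2(FPKM + 0.1) or log2(FPKM + 1), and 1 to 3 with libraries left out.

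Of the other glycolysis genes, 0 were enriched. The number was 1 with DESeq2, library size alone, either FPKM scale, the replicate block or the block with GC and length trends. It was 2 with these trends alone. Each of these settings also enriched a larger number of genes than the 474 of 13632 in the fit used above. DESeq2, with 692 of 23345 genes, enriched a smaller share. With libraries left out the calls of the other glycolysis genes moved too. Their median log2 fold change of -0.22 moved to 0.13 with library size alone, 0.35 with 10 counts in every library, 0.063 and 0.048 on the smaller and larger FPKM pseudocount, 0.28 with GC and length trends taken out and 0.30 with the block added, and ran from -0.15 to 0.10 with libraries left out. The sign changed for *Tpi1* (-0.0092 with upper quartile, -0.067 with 10 counts in every library, and -0.24 to 0.28 with libraries left out), *Pkm* (-0.032 with 10 counts in every library, and -0.14 to 0.23 with libraries left out), *Pfkp* (-0.90 to 0.31 with libraries left out) and *Ldhb* (0.51 with GC and length trends taken out, with or without the block). The cause of these shifts was not tested.

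Over all tested genes, 474 were enriched, against 292 with no filter, 721 with the replicate block, 845 with library size alone, 871 with GC and length trends taken out, 2340 and 2537 without an input replicate and 8 and 9 without a RIP replicate. The 1333 depleted became 803 with trends and block, 2550 and 2766 without an input and 112 and 178 without a RIP replicate. With no filter 23345 genes were fitted. A lone library is assumed to vary like the other group. The replicate block changed the adjusted call of *Pgam1* and of no other gene named in the report for which it was run. Low counts limit *Hk2* (34 and 38 in the inputs), *Pfkfb3* (33 and 32), *Pfkfb2* (25 and 62), *Aldoc* and *Eno3*.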
